A study of Ovis aries with 10 samples.

Results

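The genes described here are 9 contractile and myogenic genes of cardiac and skeletal muscle, measured in the left ventricle of the fetal sheep heart. They are MYH7, TPM1, CRYAB, TNNC2, MYH1, MYH2, MYOD1, MYF5 and ACTG1. Every probe whose gene name, accession or description on the array is one of these genes was taken, which gave 15 probes of 15008 for 9 of the 1024 genes named on the array. The array lists MYH7, MYH1, MYH2 and TNNC2 under the older names OMYHCS, OMYHC2X, OMYHC2A and TNCC2, and ACTG1 as LOC443340. MYH7, TNNC2, MYH2, MYOD1, MYF5 and ACTG1 had 2 probes each, and TPM1, CRYAB and MYH1 had 1. The study infused pregnant ewes carrying single fetuses with cortisol (Solu-Cortef) at 1 mg/kg/day or with vehicle from about day 115 of gestation, and collected the fetuses soon after labour began, near term, at 139 to 144 days for the study and at 140 days as the samples used here are labelled. RNA of the left ventricular free wall from 5 control fetuses (vehicle) and 5 cortisol fetuses, of 7 ewes in each group, was labelled with Cy3 and hybridised to 1 single-colour 60-base oligonucleotide array per fetus. The labels name no transgene, deletion, sex or breed for either group.

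The contraction of striated muscle is driven by myosin heavy chains that pull on actin filaments, and it is switched on when calcium binds troponin C and tropomyosin moves along the filament. The ventricle of a large mammal uses the slow myosin encoded by MYH7, which slow skeletal fibres share, whereas the fast myosins of MYH1 and MYH2 belong to skeletal fibres. Skeletal muscle is specified in the embryo by transcription factors of the MyoD family, among them MYF5 and MYOD1, which the heart does not use for its own differentiation. Alpha B crystallin, encoded by CRYAB, is a small heat shock protein that is abundant in heart and slow muscle and protects desmin and other filaments, and ACTG1 encodes a cytoplasmic actin present in most cells.

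The probe sequences are shown because the myosin results rest on what each probe could tell apart. Those of MYH1 and MYH2 held a run of 44 bases in common, and capitals mark the bases outside it:
MYH1 probe 1: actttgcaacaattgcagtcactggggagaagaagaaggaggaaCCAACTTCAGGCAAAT
MYH2 probe 1: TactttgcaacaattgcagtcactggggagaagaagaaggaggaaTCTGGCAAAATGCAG
Bases of the brighter MYH7 probe that precede its aligned stretch are printed in lower case and were not compared. In that probe, capitals mark the bases that differ from MYH2 probe 1 over 54 aligned bases, of which 31 (57.4%) were identical:
MYH7 probe 2: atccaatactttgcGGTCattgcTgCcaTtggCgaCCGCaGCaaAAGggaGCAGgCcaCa
Outside the MYH1 and MYH2 pair, the longest run shared by probes of different genes of the 9 was 8 bases. MYH1 and MYH2 are neighbours with 0 genes between them in the RefSeq annotation of the sheep assembly ARS-UI_Ramb_v3.0, and whether the probes also bind each other's transcript was not tested. The second MYH2 probe shared 59 bases with the first, as did the paired probes of TNNC2, MYOD1 and MYF5. The paired probes of MYH7 and of ACTG1 had no such overlap, with longest shared runs of 8 and 5 bases. Probes of the other genes that the values turn on are given here with stop codons in capitals, and the CRYAB probe is shown only as far as its stop codon:
MYH7 probe 1: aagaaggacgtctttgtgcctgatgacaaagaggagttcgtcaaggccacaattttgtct
TPM1 probe 1: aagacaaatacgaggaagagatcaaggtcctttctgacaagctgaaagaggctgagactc
CRYAB probe 1: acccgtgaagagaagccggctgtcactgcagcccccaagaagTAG
TNNC2 probe 1: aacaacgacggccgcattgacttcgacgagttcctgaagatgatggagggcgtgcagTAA
MYF5 probe 1: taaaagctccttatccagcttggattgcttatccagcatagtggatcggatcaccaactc

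Levels are the log2 of the background-subtracted signal minus the log2 of the same array's 75th percentile, so a level of 0 is the 75th percentile and each step of 1 is a doubling. The 75th percentile lay between 177.2 and 286.3 scanner units, and 63.5% to 73.2% of the spots of an array were flagged by the scanner software as well above background, with 0 saturated spots. The cortisol replicate 4 array had an area of low signal that held 1277 spots (8.4%), and of the 15 probes only that of TPM1 lay in it. The arrays came from 2 slides, with control and cortisol replicates 1, 2 and 3 on slide 1 and replicates 4 and 5 on slide 2. The free-text descriptions of 9 samples, all but control replicate 1, name the biceps femoris, a limb muscle, while titles, source and tissue fields name the left ventricle for all 10. The labels were followed, and the genes below bear on both tissues. Each array is a different fetus.

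The 9 genes fell into 3 classes by detection. MYH7, TPM1, CRYAB, TNNC2 and ACTG1 were well above background with all 8 of their probes on all 10 arrays, as were 54.4% of all probes. MYH1, MYH2 and MYF5 were well above background with 0 of their 5 probes on any array, as were 22.5% of all probes. The cytoskeletal actin gene ACTB, with 1 probe, was also well above background on 0 arrays. A count of 0 arrays therefore does not by itself show that a transcript was absent. MYOD1 lay between, with probe 1 on 1 array and probe 2 on 6. Array percentiles, the share of an array's probes that are dimmer, describe the brightness of each probe and are not amounts of transcript, since probes differ in how well they bind.

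**Figure D1:**
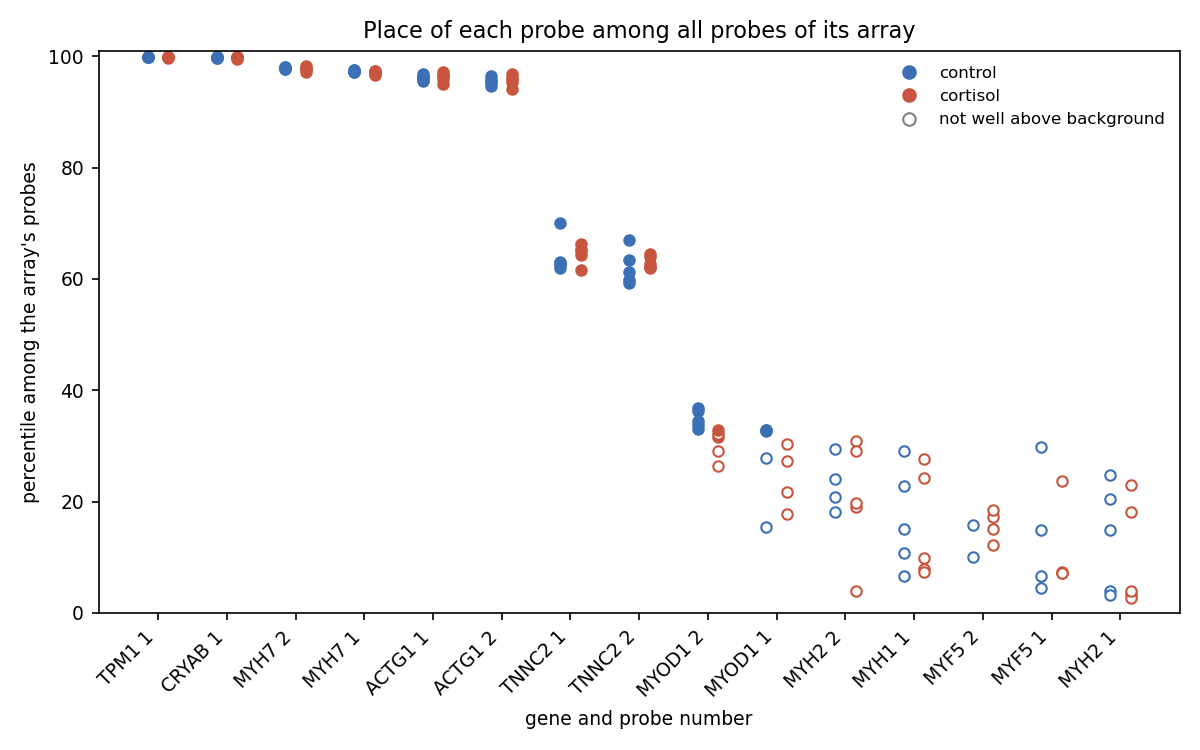
The plot of array percentiles shows the percentile among all probes of its array (vertical axis, 0 to 100) of each of the 15 probes (horizontal axis, by mean percentile), with 1 point per array, blue for control and red for cortisol, open where the spot was not well above background. The probes of TPM1, CRYAB, MYH7 and ACTG1 lie at 94.1 or above, those of TNNC2 between 59.3 and 70.0, and those of MYOD1, MYH1, MYH2 and MYF5 at 36.8 or below.

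MYH7, whose myosin powers the ventricle and slow fibres, was among the brighter probes on every array, at percentiles of 97.2 to 98.3 with probe 2. Its levels with that probe were 5.15, 5.32, 4.92, 4.87 and 5.08 in control fetuses 1 to 5 and 4.49, 4.99, 5.22, 5.49 and 5.03 in cortisol fetuses 1 to 5. The lowest and the highest of all 10 values were both cortisol fetuses, replicates 1 and 4, and the control values lay between them. The group means were 5.07 ± 0.18 (SD, n = 5) in control and 5.04 ± 0.37 (SD, n = 5) in cortisol fetuses. The difference of -0.03 ± 0.18 (SE) did not pass the test across all probes (95% interval -0.42 to 0.36, limma with Benjamini-Hochberg adjustment, adjusted p = 0.995). Probe 1, which targets another stretch of the transcript, ranged from 4.01 in cortisol replicate 1 to 4.76 in control replicate 1 and gave -0.15 ± 0.15 (adjusted p = 0.989, limma). The separate MYH7 probes correlated with a Pearson r of 0.86 over 10 arrays, though their highest fetuses differed, and their difference had an SD of 0.14 on the log2 scale. Slide 1 alone gave -0.23 and slide 2 alone 0.28 for probe 2, so the sign differed between slides, a difference that was not tested.

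TPM1 encodes an alpha tropomyosin, the rod that lies along the actin filament and blocks or opens the myosin sites. Its probe was at percentiles of 99.7 to 99.9 on all arrays. Control fetuses 1 to 5 had levels of 9.08, 8.91, 8.80, 9.04 and 8.96, and cortisol fetuses 1 to 5 had 9.10, 8.98, 9.19, 8.07 and 8.68. A single array, cortisol replicate 4, stood 0.61 below the next lowest value, and it is the array on which this spot lay in the area of low signal. The other 9 arrays spanned 0.51 on the log2 scale. The difference was -0.16 ± 0.20 (SE, 95% interval -0.59 to 0.28, adjusted p = 0.989, limma), and 0.03 ± 0.13 with the spots of that area left out. With that array in, the cortisol group reached a mean of 8.80 ± 0.45 (SD, n = 5), the controls had 8.96 ± 0.11 (SD, n = 5), and without it the cortisol SD was 0.22.

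CRYAB, the small heat shock protein gene, had the narrowest range of the 6 genes tested, 0.53 on the log2 scale over all 10 arrays. Without cortisol replicate 4, whose TPM1 spot lay in the area of low signal, the range was 0.51 for TPM1 and 0.53 for CRYAB. Its levels were 8.71, 8.75, 8.45, 8.26 and 8.52 in control fetuses 1 to 5 and 8.22, 8.22, 8.65, 8.58 and 8.50 in cortisol fetuses 1 to 5, at percentiles of 99.6 to 99.8. Both groups covered nearly the same range. Means were 8.54 ± 0.20 (SD, n = 5) and 8.43 ± 0.20 (SD, n = 5), and the difference of -0.10 ± 0.13 (SE) had a 95% interval of -0.40 to 0.19 (adjusted p = 0.989, limma). On a linear scale this interval allows a cortisol level of 0.757 to 1.14 times the control level.

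TNNC2, the calcium sensor of fast skeletal fibres, was well above background on all 10 arrays of RNA labelled as ventricle. Probe 1 had levels of -0.53, -1.22, -1.21, -1.18 and -1.27 in control fetuses 1 to 5 and of -1.31, -0.99, -0.88, -0.96 and -1.05 in cortisol fetuses 1 to 5. Control replicate 1 stood apart from the other 4 controls, and it is the 1 sample whose description names the ventricle. Whether the description bears on this value was not tested. The overlapping probe 2 also had its highest value there, but less far from the rest, with -0.80 in that fetus and -1.50 to -1.14 in the other controls, and the paired probes correlated with r = 0.80 over 10 arrays. Group means with probe 1 were -1.08 ± 0.31 (SD, n = 5) and -1.04 ± 0.16 (SD, n = 5), and the difference of 0.05 ± 0.16 (SE, 95% interval -0.30 to 0.39) did not pass the test (adjusted p = 0.992, limma). Without control replicate 1 it was 0.18 ± 0.11.

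MYH1 and MYH2, the fast 2X and 2A skeletal myosins, were not well above background on any of the 10 arrays. Their 3 probes had levels of -6.83 to -4.54, while the dimmest spots called well above background had levels of -5.0 to -4.1, depending on the array. The scanner software had replaced the signal of the MYH1 probe by a substitute value on 5 arrays, and that of the MYH2 probes on 5 and 2. The overlapping MYH2 probes, with 59 bases in common, did not follow each other over the 9 arrays where both were measured (r = -0.35, SD of the difference 1.15). No fold between groups is given for these genes, since both groups were at background. A weaker flag of the software, for a signal positive and significant against background, was set on 5 arrays for MYH1 and on 5 and 8 for the MYH2 probes.

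MYF5, which acts before or beside MYOD1 in the choice of the skeletal fate, was likewise at background in both groups. Its probes had substitute values on 7 and 10 arrays, and spots passed the weaker flag on 3 and 0. MYF5 was therefore not well above background with either probe, and only probe 1 passed the weaker flag, on 3 arrays.

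MYOD1, the regulator that can turn other cells into muscle, was the only 1 of the 9 genes measured near the limit. Probe 2 had levels of -3.87, -4.35, -4.16, -3.86 and -4.00 in control fetuses 1 to 5 and of -4.44, -4.50, -4.29, -5.07 and -4.87 in cortisol fetuses 1 to 5. It was well above background in 4 control and 2 cortisol fetuses. All 5 cortisol values lay below the control mean, but the groups overlapped, since cortisol replicate 3 was above control replicate 2. The difference was -0.59 ± 0.17 (SE, 95% interval -0.96 to -0.22), with means of -4.05 ± 0.21 (SD, n = 5) and -4.64 ± 0.32 (SD, n = 5). It did not pass the test over all probes (adjusted p = 0.989, unadjusted p = 0.00525, limma). In the authors' deposited table the difference was -0.33. With normexp background correction, which used an offset of 50 scanner units, it was 0.06 ± 0.07, where the median of all probes was 0.064. No direction is read from that value, and the effect of the offset on dim spots was not tested. The difference was -0.28 ± 0.16 on slide 1 alone and -1.04 ± 0.22 on slide 2 alone, and -0.48 without cortisol replicate 4. MYOD1 probe 1, which shares 59 of its 60 bases with probe 2, was well above background on 1 array and could not be tested. In control replicate 1 it had a substitute value at -6.57, where probe 2 read -3.87. Over the 9 arrays where both were measured, the probes correlated with r = 0.31 and differed with an SD of 0.85.

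**Figure D2:**
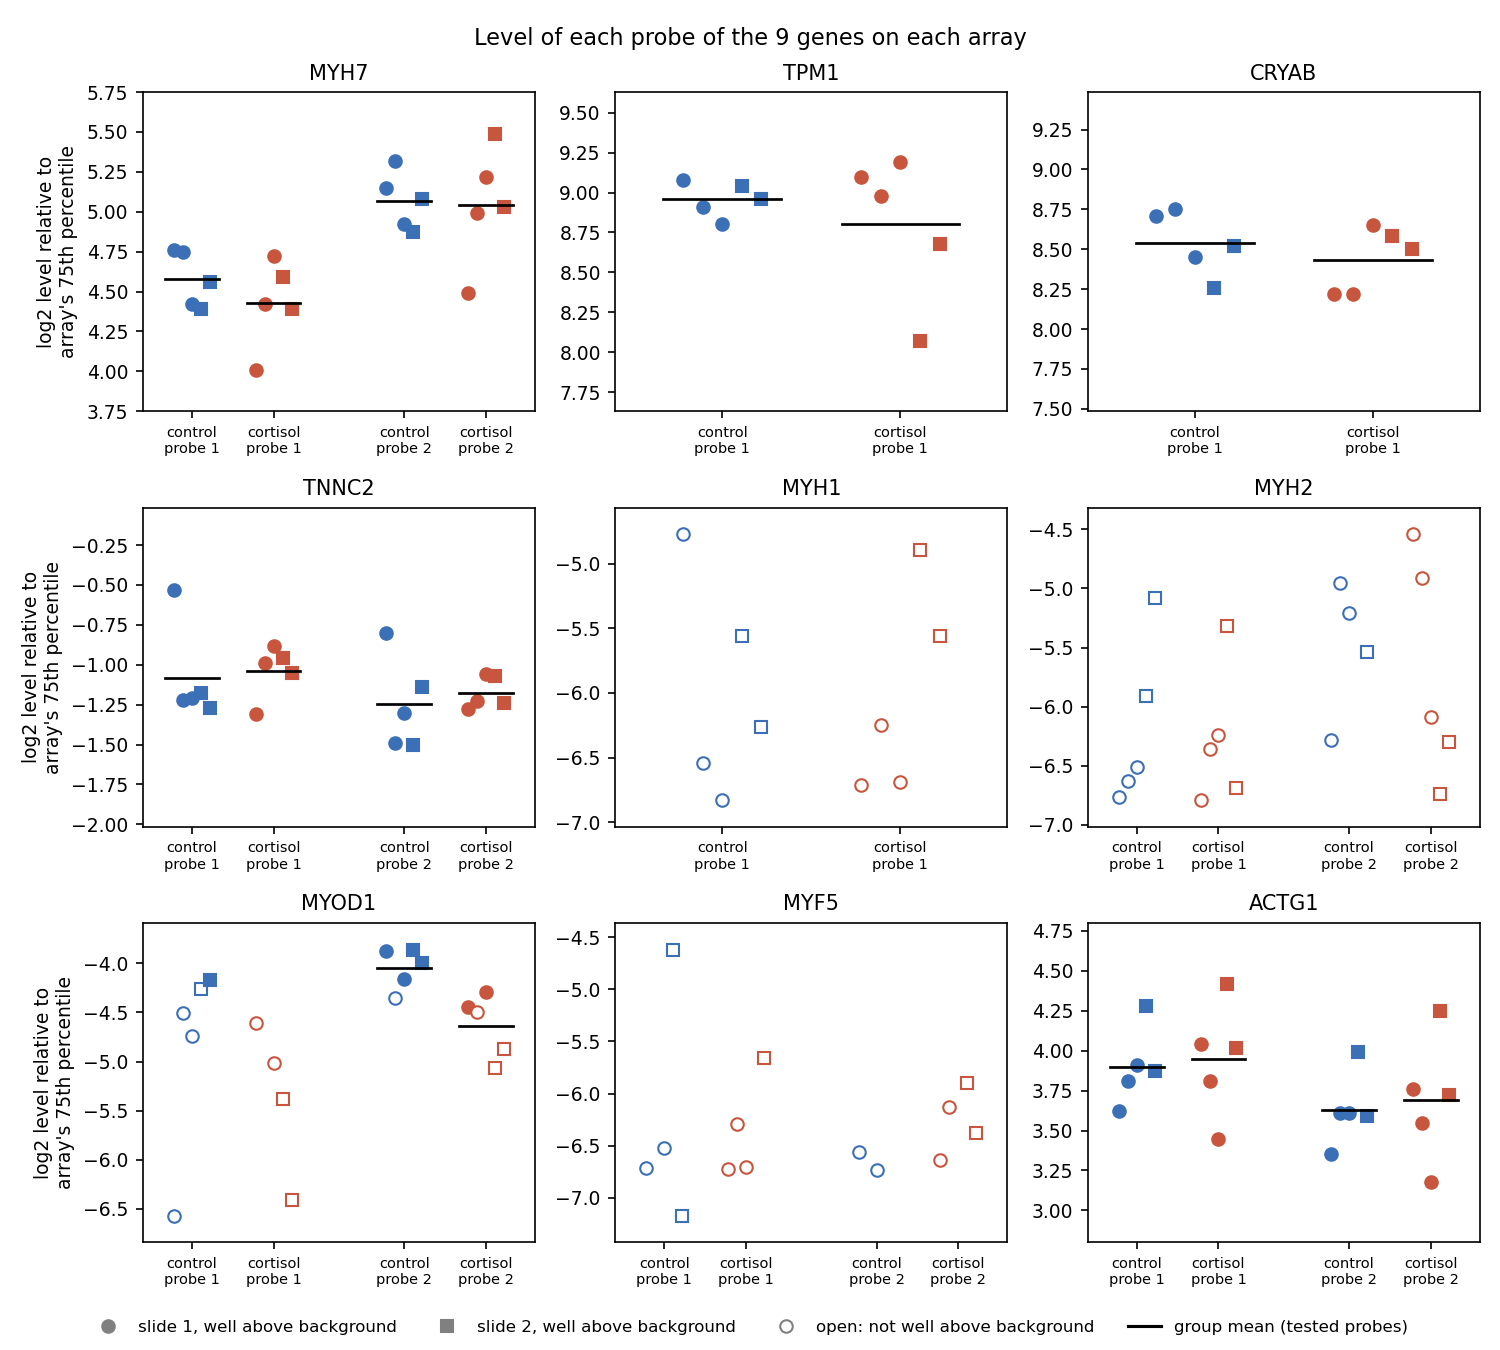
The plot of levels by gene shows the log2 level relative to the array's 75th percentile (vertical axis, scaled by gene) for each probe, with control in blue and cortisol in red, 1 point per array, circles for slide 1, squares for slide 2, open symbols for spots not well above background and bars for the group means of tested probes. The groups overlap for every probe, cortisol replicate 4 is the low TPM1 value at 8.07, and control replicate 1 is the high TNNC2 value at -0.53.

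ACTG1, the gamma cytoplasmic actin, gave the closest agreement between probes. Probe 1 had levels of 3.62, 3.81, 3.91, 4.28 and 3.87 in control fetuses 1 to 5 and of 4.04, 3.81, 3.45, 4.42 and 4.02 in cortisol fetuses 1 to 5. Replicate 4 was the highest fetus in both groups. Probe 2, which has no overlap with probe 1, followed it with r = 0.99 over 10 arrays, and their difference had an SD of 0.04. The spread of ACTG1 over the 10 arrays, an SD of 0.29, was thus far larger than the disagreement of its probes. With 1 array per fetus, differences between fetuses and between arrays cannot be told apart in that spread. The 5 control fetuses had a mean of 3.90 ± 0.24 (SD) and the 5 cortisol fetuses one of 3.95 ± 0.35 (SD). The difference of 0.05 ± 0.18 (SE, 95% interval -0.36 to 0.45) did not pass the test (adjusted p = 0.994, limma). A further probe described as cytoplasmic actin 2, which shares a transcript cluster with ACTG1 but does not carry its name, differed by 0.12 ± 0.30 and had r = 0.54 with ACTG1 probe 1. Another probe without a gene name, which shares a different transcript cluster with ACTG1, differed by -0.07 ± 0.21 and had r = -0.02 with ACTG1. That probe lay in the area of low signal of cortisol replicate 4, and its difference was 0.10 with that area left out. Its r without that area was not computed.

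None of the 9 probes that could be tested gave a difference past the threshold. At an adjusted p under 0.05, 0 of the 9 probes and 0.0% of the 10211 probes tested were called (limma, smallest adjusted p = 0.989). At an unadjusted p under 0.05, 1 of the 9 was called, MYOD1, which was lower with cortisol, against 3.22% of all probes, 1.59% higher and 1.64% lower. That split was 162 higher and 167 lower, and it was 774 and 71 with normexp, 200 and 127 with median scaling, 179 and 79 in the authors' deposited table, and 166 and 300 without cortisol replicate 4. The groups overlapped for all 9, where 0.803% of all probes had groups that did not overlap. Of the 9, 4 were higher and 5 lower with cortisol, with a median difference of -0.03 against -0.004 over all probes. Apart from MYOD1, the 95% intervals of these genes reached from -0.59 to 0.48, and each gene's own interval is given with it above or drawn in the plot of differences. In a whole piece of ventricle, fewer cells of a type and less RNA per cell cannot be told apart.

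**Figure D3:**
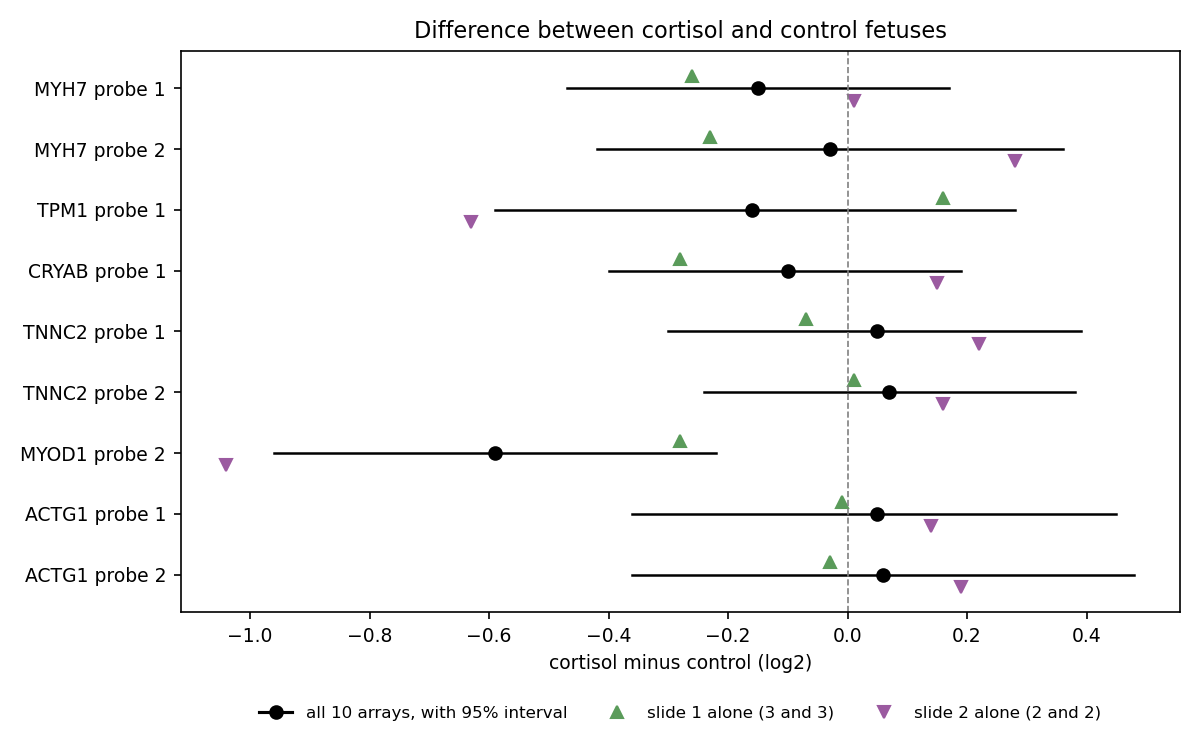
The plot of differences shows cortisol minus control on the log2 scale (horizontal axis) for the 9 probes tested, with black points and 95% intervals for all 10 arrays and triangles for each slide alone. The intervals of all probes but MYOD1 include 0, and all probes but TNNC2 probe 2 and MYOD1 have opposite signs on the 2 slides.

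The fetuses with more MYH7 signal were in general those with more CRYAB signal. Of the 15 pairs among the 6 genes, theirs had the highest Pearson r, 0.78 over 10 arrays (permutation p = 0.00546, adjusted over the 15 pairs 0.0819), with a Spearman rho of 0.88 (permutation p = 0.00161, adjusted 0.0241). Cortisol replicate 1 was the lowest fetus for MYH7 and tied for the lowest for CRYAB, and control replicates 1 and 2 and cortisol replicates 3 and 4 were high for both. Without the 2 arrays farthest from the median of MYH7, r was 0.87, and over the 6 arrays of slide 1 it was 0.83, while slide 2 has only 4 arrays. With the group means removed r was 0.79, and with MYH7 probe 1 in place of probe 2 it was 0.86. The Spearman call was lost on slide 1 alone (adjusted p = 0.25, exact permutation test), without the 2 farthest arrays (0.0685), with normexp (0.293), with quantile scaling (0.315) and in the authors' deposited table (0.116). It was also lost, with adjusted p from 0.0676 to 0.124, on leaving out control replicate 3, 4 or 5 or cortisol replicate 1 or 5. Other scalings gave lower r, 0.66 with normexp, 0.50 with quantile scaling and 0.69 in the authors' deposited table. All levels of an array share its scaling value, and both genes are bright.

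A pair of further correlations had an unadjusted p under 0.05, and neither held without the arrays farthest from the median of TPM1. TPM1 and MYOD1 had r = 0.74 (rho = 0.48, permutation p = 0.0111 for r and 0.167 for rho, adjusted 0.083 and 0.594), which became 0.01 without the 2 arrays farthest from the median of TPM1 and 0.49 without cortisol replicate 4. With the group means removed it was 0.88 over all 10 arrays (adjusted p over the 15 pairs 0.0015, permutation test), with quantile scaling 0.82, and over the 6 arrays of slide 1 it was 0.0034. TPM1 and ACTG1 had r = -0.68 (rho = -0.49, permutation p = 0.0305 for r and 0.155 for rho, adjusted 0.152 and 0.594), which became -0.31 and -0.38. Cortisol replicate 4, the array with the TPM1 spot in the area of low signal, was one of the arrays left out in both. Of the 15 pairs, 0 passed with Pearson's r after adjustment, 3 had an unadjusted p under 0.05, and 1 passed with Spearman's rho.

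**Figure D4:**
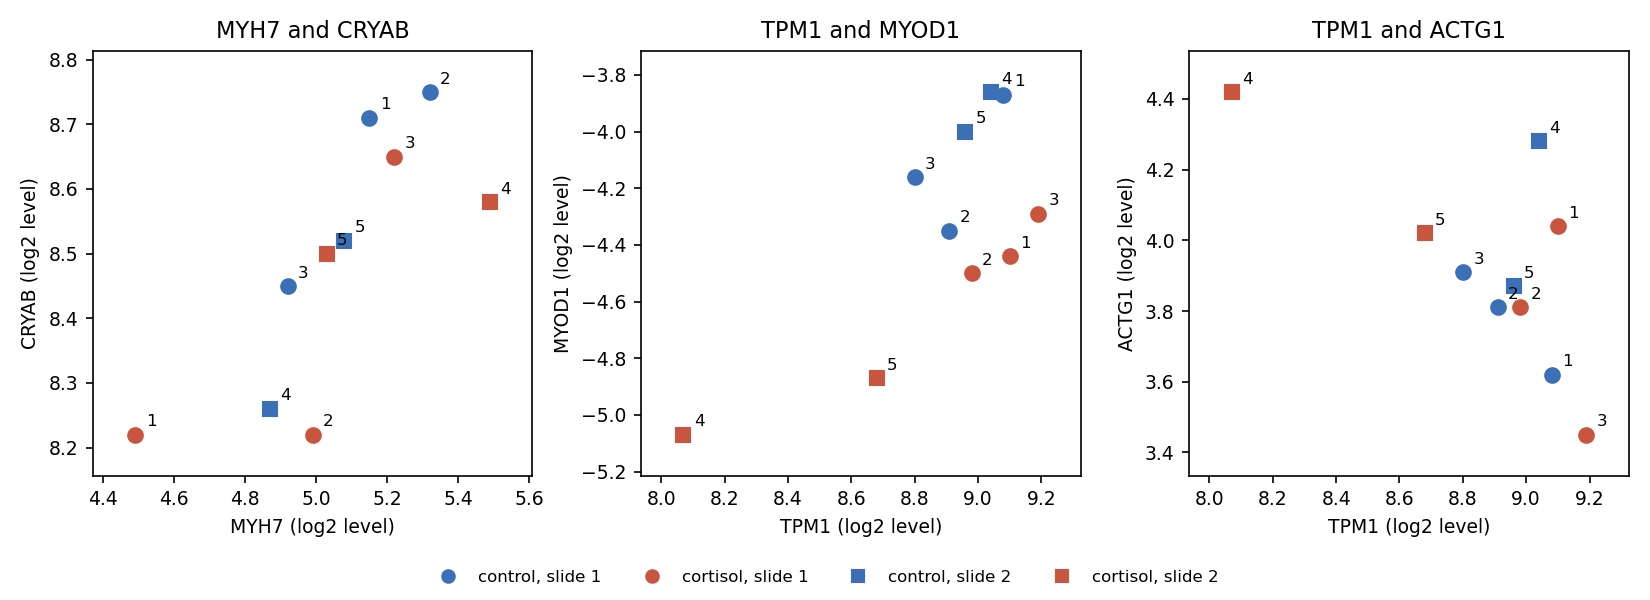
The plots of 1 gene against another show log2 levels relative to the array's 75th percentile on both axes, with 1 point per array, numbered by replicate, blue for control and red for cortisol, circles for slide 1 and squares for slide 2. MYH7 and CRYAB climb together over 10 arrays (r = 0.78), and in both plots of TPM1 the point at 8.07, cortisol replicate 4, lies far from the other 9.

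For each of the 6 genes, the 3 named genes whose levels correlated best with it over the 10 arrays were taken from 586 named genes compared. MYH7 was followed most closely by HK1, a hexokinase, with r = 0.90, then by BCAT2, the mitochondrial enzyme that begins the breakdown of branched-chain amino acids, with 0.85, and by I-MF with 0.83. CRYAB was followed by a probe described as Robo4 with 0.90, by the protease gene CAPN1 with 0.85 and by PTGDS with 0.84. For TNNC2, the values given are 0.78 with a probe described as GAPDH and 0.76 with ARL1. ACTG1 went with PDGFB at 0.90, CD1D at 0.86 and TGFB2 at 0.85. TPM1 went with SMPD1 at 0.93, UBB at 0.93 and FLT3LG at 0.92, and MYOD1 with SMPD1 at 0.91, DBP at 0.89 and BAT3 at 0.80, so that SMPD1 led both. The TPM1 values include cortisol replicate 4, where its spot lay in the area of low signal, and values without that array were not computed. MYOD1 probe 2 was well above background on only 6 of the 10 arrays. All of these are the largest of 586 values over 10 arrays and are given as a description.

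Few other genes of the same pathways had a named probe. Of 24 cardiac contractile genes listed, 3 had one, and these were MYH7, TPM1 and CRYAB, all 3 with a value below 0 (median -0.10) and 0 past the test, where TPM1 had 0.03 with the area of low signal left out. Of 29 genes listed for skeletal muscle contraction and metabolism, 6 had one and 4 could be tested, 1 higher and 3 lower with 0 past the test. Beside TNNC2 these were the fast myosin light chain gene MYL11 (listed as MYLPF) with -0.04 ± 0.19 (SE), the muscle glycogen phosphorylase gene PYGM with -0.27 ± 0.25, and myoglobin, MB, with -0.12 ± 0.14. MYL11 was well above background on all 10 arrays, like TNNC2, at a mean percentile of 69.7. PYGM and MB, which are not contractile genes, were so too and brighter, at mean percentiles of 93.1 and 99.8. Whether the signal of these listed genes came from heart or skeletal muscle was not tested. Of 22 myogenic regulators and growth factors listed, 7 had a probe and 5 could be tested, 2 higher and 3 lower with 0 past the test.

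MYOG, another of the listed myogenic regulators, was well above background on 7 arrays with 1 probe and on 0 with its other probe, and differed by 0.24 ± 0.29. MSTN, the inhibitor of muscle growth, was well above background on 0 arrays. The growth factor genes IGF1 and IGF2 differed by 0.23 ± 0.19 and -0.09 ± 0.31. HAND1, a transcription factor of the developing ventricle, was the 1 gene with a probe of 10 cardiac transcription factors listed, was well above background on all 10 arrays and differed by -0.02 ± 0.20. Of the 15 chaperone genes listed, 4 could be tested, 3 higher and 1 lower with 0 past the test. HSP90AA1 had 0.21 ± 0.10, HSPA5 0.15 ± 0.27 and the lens crystallin CRYAA 0.11 ± 0.19, where CRYAB had -0.10 ± 0.13.

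Markers of other cells of the ventricular wall are given beside these values as the mean level of each list's tested genes. The smooth muscle genes CNN1 and MYLK, 2 of 9 listed with a probe, differed by 1.01 ± 0.51 (SE) and 0.32 ± 0.18, and their mean ran from 2.19 to 2.68 in controls and from 2.16 to 4.09 with cortisol. The globin gene HBB, a mark of red blood cells and the 1 gene of 7 listed with a probe, ran from 3.18 to 6.07 in controls and from 1.99 to 6.58 with cortisol. The mean of 6 of 10 endothelial genes ran from -1.25 to -0.98 and from -1.19 to -0.73, with 4 genes higher and 2 lower. Of these, 2 had an unadjusted p under 0.05 (limma), in opposite directions. They were TEK with 0.58 ± 0.24 and TIE1 with -0.53 ± 0.13, the latter with values in only 3 cortisol fetuses. The mean of 4 of 9 fibroblast genes ran from 1.61 to 2.39 and from 1.73 to 2.29. The mean of 5 of 6 adipocyte genes ran from -1.36 to 0.19 in controls and from -0.82 to 0.04 with cortisol. Of 7 leukocyte genes, 3 had a probe, CD4 was well above background on 0 arrays, and the other 2 had a mean of -2.94 to -1.96 and of -3.24 to -2.35. In each of these lists 0 genes passed the test, and their part in the values of the muscle genes was not tested.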

How the data were processed

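RNA from 10 left ventricles, 5 control and 5 cortisol as the titles and treatment fields give them, was hybridised to 1-colour arrays. Per the file headers, the authors extracted Cy3 intensity with Agilent Feature Extraction (version 10.1.1.1 in the submitters' processing notes), subtracting a fitted background surface and replacing weak signals by substitute values. The authors' deposited table holds log2 values with medians of 5.77 to 5.79 and rank order equal to the median signal minus local background on each array, so it is scaled between arrays by a method not given in the sources used here. Its scale was checked against the scanner values.

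The level was log2 of the deposited processed signal minus log2 of the array's 75th percentile, over 15208 spots and 15008 probes without controls. Spots flagged as outliers or not found were left out, and multiple spots of a probe were averaged. A probe was tested if well above background on 5 or more arrays (10211 probes). limma 3.58.1 (R 4.3.3) fitted group means over the 10 arrays with empirical Bayes moderation, and p-values were adjusted by Benjamini-Hochberg across the tested probes. For a gene with 2 probes, the brighter of the tested probes stood for it. Pearson and Spearman correlations over the arrays used 100000 random permutations, or all orders under 10 arrays, two-sided. The script was tested on simulated data. Replicate numbers are shared between groups, but pairing was not established: deviations of same-numbered arrays correlated with r from 0 to 0.22, above 0.1 in 3 of 5 pairs. Alternatives tried were other background corrections, scalings, filters, slide and replicate blocks, array weights, and leaving out each array. Genes named are the 9 genes, the genes of lists of muscle and cell type markers, and the best correlated genes, of which 1 is not reported here. The genes, lists and tests were chosen with earlier results of these data known. Files give probe coordinates for none of these probes, and 8 of the 9 symbols, all but MYH7, were in the RefSeq table.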

Additional observations from a re-analysis of the deposited data

Results flagged for a closer look

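The level of TNNC2 with probe 1 in control replicate 1 was -0.53, far above the other 4 controls, which lay between -1.27 and -1.18. Its gap to the nearest control was 0.88 of the range of the 5 controls, above Dixon's critical value of 0.71. The overlapping TNNC2 probe 2 had its highest value, -0.80, in the same fetus. Both groups were examined for each of the 9 probes tested, 18 groups in all, and chance flags about 1 group in 20.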

How the results depend on the processing

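The count of called probes was 0 among all probes tested and 0 among the tested probes of these genes under the main setting and all 24 alternatives, with 9 of them tested in each but 8 where detection on all arrays was asked, which drops MYOD1, and 15 without a filter. No difference of the 6 genes passed the threshold under any alternative, and the sign of these small differences was not stable. MYH7 probe 2 turned to 0.28 on slide 2 alone and ranged from -0.14 to 0.11 when each array was left out, with the positive values reached without control replicate 2 (0.04) and without cortisol replicate 1 (0.11). TPM1 turned to 0.03 with the low area left out, 0.16 on slide 1 alone and 0.02 with array weights, and ranged from -0.25 to 0.03 over left-out arrays. CRYAB turned to 0.15 on slide 2 alone. TNNC2 turned to -0.07 on slide 1 alone and ranged from -0.0011 (without control replicate 5) to 0.18 (without control replicate 1). MYOD1 kept its sign in 22 of 23 alternatives and had 0.06 with normexp, close to that setting's median over all probes of 0.064. ACTG1 turned to -0.03 with normexp, -0.01 on slide 1 alone and -0.07 with array weights, and ranged from -0.07 to 0.17 over left-out arrays. With the replicate block the differences were -0.03 for MYH7, -0.16 for TPM1, -0.10 for CRYAB, 0.05 for TNNC2, -0.59 for MYOD1 and 0.05 for ACTG1, 0 of 10168 probes were called, and 3 of the 5 controls correlated best with the cortisol array of their own number. Pairs past the adjusted threshold by Pearson's r numbered 0, or 2 with group means removed (MYH7 with CRYAB and TPM1 with MYOD1) and 1 with the other MYH7 probe (chosen after seeing the data), and 0 to 1 over left-out arrays, with 1 reached without cortisol replicate 4. By Spearman's rho they numbered 1, or 2 with group means removed and 0 on slide 1 alone, without the 2 farthest arrays, with normexp, with quantile scaling and in the authors' deposited table, and 0 to 1 over left-out arrays. Leaving out each array, MYH7 with CRYAB kept r from 0.71 to 0.84, and TPM1 with MYOD1 turned to -0.22 with normexp. The cause of these changes was not tested. Of the 15 probes, 9 were well above background on at least 5 arrays, and 13 by the weaker flag of the software. Weak signals limit MYOD1, MYF5, MYH1 and MYH2, and 5 arrays a group limit the rest.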
